A study of Mus musculus with 16 samples.

Results

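The genes described here encode the nuclear subunits of the oxidative phosphorylation system and some of the factors that assemble it. They were chosen by symbol, as every gene on the array whose symbol starts with Nduf, Uqcr, Atp5 or Cox followed by a digit, together with Sdha, Sdhb, Sdhc, Sdhd and Cycs. This gave 96 of the 17097 genes with a probe set, and 87 of the 8139 genes whose log2 value exceeded 5 on at least 4 arrays. The symbol rule also took in assembly factors (14 of the 87) and 1 pseudogene, Ndufs5-ps, whose probes can share signal with Ndufs5. The remaining 72 were subunits or cytochrome c.

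Spleen CD4 T cells of NOD/LtJ mice aged 6 weeks were sorted, and their RNA was hybridised to 16 Affymetrix arrays, 4 per group. KI Tregs and KI Tconv (regulatory and conventional T cells) came from mice that carry the Foxp3tm2Ayr allele, described in the labels as Foxp3gfp. WT Tregs and WT Tconv came from mice that carry the transgene Tg(Foxp3-EGFP/cre)1aJbs, so the WT cells also carry a Foxp3 reporter construct. All mice were untreated, and the cells were lysed directly after the sort. The labels' protocol gives the gate CD3+CD4+GFP- for all samples, including those labelled Treg, so how the Tregs were gated is unclear. Whether the 4 arrays of a group stand for 4 mice is not given in the labels, so p-values measure only the spread between these samples, which may be technical.

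Oxidative phosphorylation passes electrons from NADH through complex I, or from succinate through complex II, to ubiquinone, complex III, cytochrome c and complex IV, where oxygen is reduced. The proton gradient built on the way drives ATP synthase. In mouse T cells, Tregs are known to rely on this pathway more than activated conventional T cells do, which take up more glucose and run glycolysis. The subunits encoded by the mitochondrial genome are not analysed here.

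In both genotypes, the samples labelled Treg carried the Treg markers. All 7 listed (Foxp3, Il2ra, Ctla4, Ikzf2, Ikzf4, Nrp1 and Tnfrsf18) were higher in Tregs than in Tconv at an adjusted p under 0.05 in both comparisons. Foxp3 ranged from 9.39 to 10.05 in KI Tregs, 9.72 to 10.16 in WT Tregs, 3.57 to 3.78 in KI Tconv and 4.24 to 4.96 in WT Tconv, all on the log2 scale. The neutrophil genes measured (5 of 6 listed, all kept) varied widely between arrays of each group. Their summed log2 values ran from 25.2 to 40.5 in KI Tregs, 17.8 to 38.8 in WT Tregs, 19.9 to 35.5 in KI Tconv and 22.6 to 36.2 in WT Tconv. Sums of the B cell list (Cd79a and Pax5 not kept) also overlapped between all groups, at 20.9 to 30.6. Those of the monocyte list (Csf1r, Cd14, Itgam and Adgre1 not kept) overlapped too, but reached higher in Tregs. They ran from 22.5 to 33.7 in KI Tregs and 23.9 to 35.1 in WT Tregs. In Tconv they ran from 22.6 to 27.5 (KI) and 23.2 to 28.2 (WT).

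The promoters of the members were searched, because nuclear genes of the pathway are known to share binding motifs for NRF1, for ETS factors such as GABP (also called NRF2) and for YY1. RefSeq promoters of the GRCm38.p6 build, 250 bases before to 50 after each start, were matched for 77 of the 96 members. On either strand, the NRF1 motif (GCGC, any base, then TGCGC) occurred in 18 of the 77 (23.4%), against 13.4% of the promoters of all genes kept and 5.19% of all promoters in the table. The ETS motif CCGGAAG occurred in 21 (27.3%), against 24.1% and 9.93%. The YY1 motif AAGATGGC occurred in 12 (15.6%), against 6.37% and 3.19%. The ETS motif ends and the YY1 motif begins with AAG, so 1 stretch can match both. Of the 77 members, 43 held at least 1 of the 3 motifs, and 34 held none. A match describes the letters and not binding. Shown here are the 150 bases before the start of the 3 members that passed between Tregs and Tconv in both genotypes under each setting that tested them. Cox10 was not tested under the stricter filter. They lie at chr11:64079473-64079622 (minus strand, Cox10), chr4:24897933-24898082 (plus strand, Ndufaf4) and chr10:80406822-80406971 (minus strand, Uqcr11). Each is printed 5′ to 3′ along its gene, with a motif match in capitals.
Cox10: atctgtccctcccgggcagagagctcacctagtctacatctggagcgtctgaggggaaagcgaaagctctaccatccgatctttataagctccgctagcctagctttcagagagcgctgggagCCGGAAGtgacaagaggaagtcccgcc
Ndufaf4: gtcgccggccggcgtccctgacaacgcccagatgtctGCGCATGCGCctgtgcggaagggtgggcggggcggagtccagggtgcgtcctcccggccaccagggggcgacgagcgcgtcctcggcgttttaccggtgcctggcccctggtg
Uqcr11: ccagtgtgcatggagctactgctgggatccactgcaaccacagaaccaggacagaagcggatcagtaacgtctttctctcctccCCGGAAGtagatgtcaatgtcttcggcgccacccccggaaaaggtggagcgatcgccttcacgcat
The ETS match begins 27 bases before the start of Cox10 and 66 bases before that of Uqcr11, and the NRF1 match begins 113 bases before that of Ndufaf4. Cox10 also held a YY1 match among the bases searched but not printed, and Uqcr11 held none. Cox10 and Ndufaf4 were lower in Tregs and Uqcr11 was higher. Whether a match bears on the differences was not tested.

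Of the 9 members that did not pass the filter on low values, 8 were the isoforms known for expression in particular tissues such as heart, skeletal muscle, lung or testis. These were Cox4i2, Cox6a2, Cox6b2, Cox7a1, Cox7b2, Cox8b, Cox8c and Ndufa4l2. Their log2 values lay between 2.43 and 4.86 on every array. Probe sets designed as controls without a target (23 in number) reached at most 4.71, with a median of 2.60. The isoforms of the same subunits that most cells use passed the filter where they were among the members (Cox4i1, Cox6a1, Cox6b1, Cox7a2, Cox8a and Ndufa4). Cox7b was not among the members. The ninth member below it was Cox11, which places copper in complex IV, with a mean of 2.74. All members of complexes I (32), II (4) and III (7) and of ATP synthase (17) passed, as did cytochrome c, 11 of 19 subunits of complex IV, all 7 assembly factors of complex I and 7 of 8 of complex IV.

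**Figure D1:**
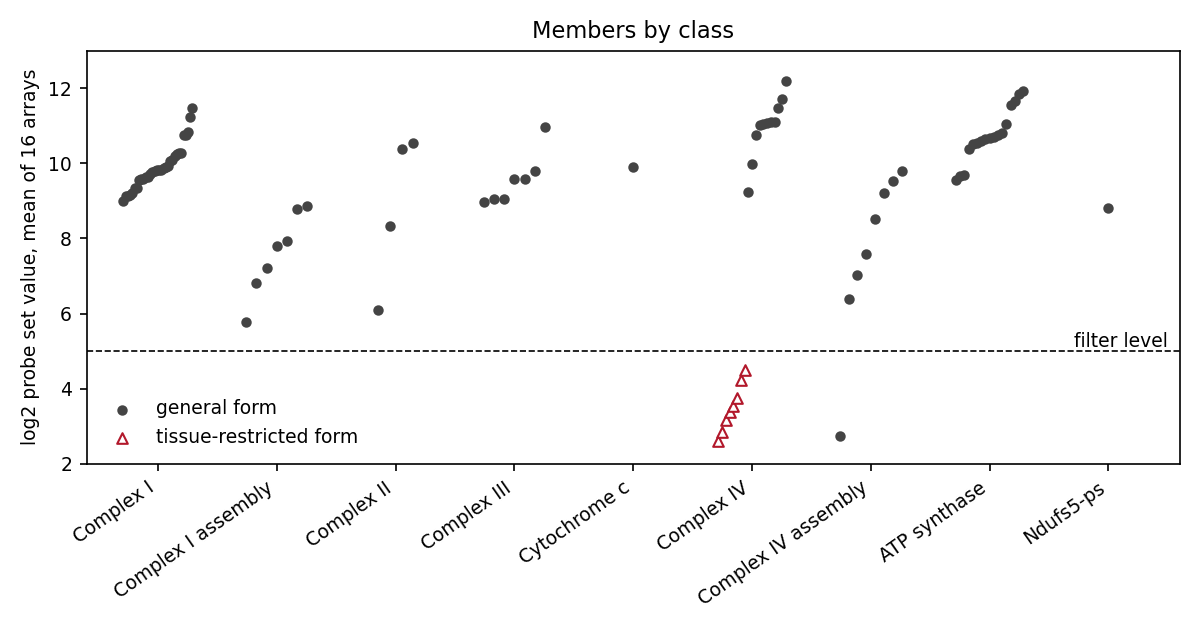
Mean log2 value over 16 arrays of each of the 96 members (y axis) by class (x axis), each point being 1 gene; filled points are forms used in most tissues and open triangles are tissue-restricted forms, and the dashed line is the filter value of 5. The 8 tissue-restricted forms and Cox11 lie below the line and the other 87 members above it; probe sets differ in affinity, so heights do not rank genes.

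The first question of the design is how Tregs differ from Tconv within each genotype. In KI cells, 19 of the 87 members (21.8%) passed the test (limma, adjusted p under 0.05), where 41.1% of all 8139 genes passed. Of these, 15 members were higher and 4 lower in Tregs, against 21.2% higher and 19.9% lower over all genes. In WT cells 13 members (14.9%) passed, where 34.6% of all genes passed. Of these, 6 were higher and 7 lower in Tregs, against 16.7% and 17.9% over all genes. A difference of at least 1.5-fold was reached by 2 members in KI cells (Cox10 and Ndufaf4), against 16.5% of all genes, and by 1 member in WT cells (Cox10), against 14% of all genes. The median absolute difference of the members was 0.11 in KI and 0.08 in WT cells, against 0.20 and 0.18 over all genes. Differences above 0 were found for 59 members in KI cells, against 47.6% of all genes, and for 41 in WT cells, against 45.8% of all genes. The median signed difference was 0.05 in KI cells, against -0.02 over all genes, and -0.01 in WT cells, against -0.03. The arrays of Tregs and Tconv did not overlap for 9 members in KI cells, against 34.7% of all genes, and for 16 members in WT cells, against 37.2% of all genes. In bulk samples, fewer cells of a type and less RNA per cell cannot be told apart.

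The KI and WT comparisons use different arrays for their means but share an estimate of each gene's spread, so they are not independent. They shared 9 called members, which are 9 of the 19 in KI cells and 9 of the 13 in WT cells, each in the same direction in both. Over all genes, 69.1% of the KI calls and 82% of the WT calls were shared in this way. Subunits made up all 6 shared members that were higher in Tregs, namely Ndufs8, Ndufb7, Ndufb8 and Ndufb9 of complex I, Uqcr11 of complex III and Cox6b1 of complex IV. The 3 shared members that were lower in Tregs were all assembly factors, namely Cox10, Cox16 and Ndufaf4. Over the classes, 13 of 72 subunits (cytochrome c included) were higher and 1 was lower in KI Tregs, and 6 were higher and 3 lower in WT Tregs. Over all genes, as above, 21.2% were higher and 19.9% lower in KI Tregs, and 16.7% higher and 17.9% lower in WT Tregs. Of the 14 assembly factors, 2 were higher and 3 lower in KI Tregs, and none was higher and 4 were lower in WT Tregs, beside the same shares over all genes. Whether subunits and assembly factors differ from each other was not tested. The medians of the assembly factors were -0.06 in KI and -0.03 in WT cells, and those of the subunits 0.07 and 0.0008.

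**Figure D2:**
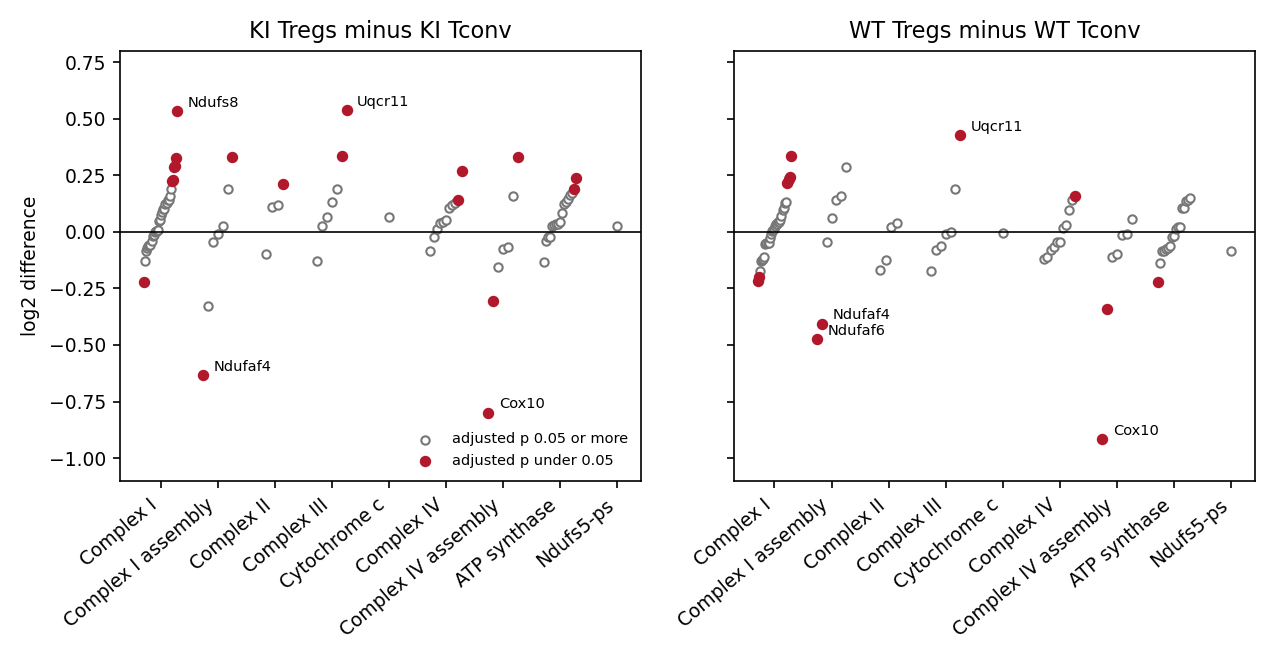
Log2 difference of Tregs minus Tconv (y axis) for each of the 87 members by class (x axis), in KI cells (left) and WT cells (right); filled points passed the test and open points did not. In KI cells 15 filled points lie above 0 and 4 below, and in WT cells 6 lie above and 7 below; Cox10 is the lowest point of both panels, at -0.80 and -0.92.

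Cox10 encodes the enzyme that makes heme O, the precursor of the heme A of complex IV. It had log2 values of 6.19, 6.47, 5.94 and 5.72 in KI Tregs, against 6.94, 6.74, 6.84 and 6.99 in KI Tconv. WT Tregs had 5.78, 5.74, 5.79 and 6.06, against 6.72, 6.90, 6.66 and 6.75 in WT Tconv. Every Treg array lay below every Tconv array of its genotype. The log2 difference was -0.80 (SE 0.13, adjusted p = 8.53e-05) in KI cells and -0.92 (SE 0.13, adjusted p = 2.29e-05) in WT cells. Cox16, an assembly factor of complex IV, averaged 9.14 ± 0.22 in KI Tregs and 9.44 ± 0.07 in KI Tconv (SD, n = 4 each). Its values were 8.94 ± 0.10 in WT Tregs and 9.27 ± 0.15 in WT Tconv. The differences were -0.31 (adjusted p = 0.0191) and -0.34 (adjusted p = 0.012), and the KI call was lost without the 4 arrays numbered 24 to 27 in the labels (adjusted p = 0.115).

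Ndufaf4, an assembly factor of complex I, was at 8.42, 8.48, 8.71 and 8.57 in KI Tregs, against 9.05, 9.28, 9.14 and 9.25 in KI Tconv. It was at 8.65, 8.61, 8.71 and 8.77 in WT Tregs, against 9.16, 8.96, 9.06 and 9.19 in WT Tconv. Again the Treg arrays were the lower ones with no overlap, by -0.63 (SE 0.08, adjusted p = 2.91e-06) in KI and -0.41 (SE 0.08, adjusted p = 0.000494) in WT cells. Its second probe set gave -0.80 and -0.78. Ndufaf6, another complex I assembly factor, was lower in WT Tregs by -0.48 (SE 0.14, adjusted p = 0.0113). Its KI difference was -0.33 (adjusted p = 0.0654). Ndufaf2, which docks on complex I during assembly, differed the other way, with 0.33 in KI cells (adjusted p = 0.0444) and 0.29 in WT cells (adjusted p = 0.0897). Its KI call was lost under 9 of 16 settings. Ndufaf2, Ndufc1, Ndufa10, Ndufa11, Atp5d and Atp5j fall outside the rule for named genes and are given because they passed a test.

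Among complex I subunits, Ndufs8 carries iron-sulfur clusters near the ubiquinone site. Its log2 values were 10.52, 10.69, 10.32 and 10.17 in KI Tregs, against 9.94, 9.91, 9.84 and 9.88 in KI Tconv. In WT Tregs they were 10.07, 10.24, 10.10 and 10.14, against 10.03, 9.73, 9.87 and 9.95 in WT Tconv. No Treg array overlapped the Tconv arrays of its genotype, but the WT groups lay only 0.24 apart (adjusted p = 0.0449), against 0.53 in KI cells (SE 0.09, adjusted p = 0.000114). The difference between those 2 values did not pass the test (interaction 0.29, SE 0.13, adjusted p = 0.539). The WT call was lost under 10 of 16 settings. Among these was the mean of the 4 probe sets of Ndufs8 (0.20, adjusted p = 0.12). That mean takes in a set at a log2 level of 4.16, with a WT difference of 0.10, while the others gave 0.24, 0.24 and 0.21.

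A further 3 accessory subunits of the membrane arm of complex I were higher in Tregs of both genotypes. Ndufb7 averaged 10.47 ± 0.14 in KI Tregs and 10.14 ± 0.17 in KI Tconv, and 10.41 ± 0.23 in WT Tregs and 10.07 ± 0.07 in WT Tconv. The adjusted p-values were 0.0168 and 0.0162. Ndufb8 differed by 0.29 in KI (adjusted p = 0.0057) and 0.23 in WT cells (adjusted p = 0.0232), and Ndufb9 by 0.23 (adjusted p = 0.015) and 0.21 (adjusted p = 0.0253). In KI cells Ndufa11 (0.29), Ndufa12 (0.23) and, in the other direction, Ndufa10 (-0.22) also passed.

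Ndufs1, the largest iron-sulfur subunit of complex I, was lower in WT Tregs. Its arrays read 9.72, 9.73, 9.78 and 9.70 in WT Tregs, against 10.02, 9.97, 9.94 and 9.86 in WT Tconv, with no overlap (-0.22, SE 0.05, adjusted p = 0.00349). In KI cells it read 9.84, 9.76, 9.71 and 9.70 in Tregs, against 9.82, 9.79, 9.89 and 9.83 in Tconv, where the arrays overlapped. Ndufc1, an accessory subunit, was also lower in WT Tregs (-0.20, adjusted p = 0.0432), a call lost under 12 of 16 settings.

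Complex II had 1 call, in KI cells. Sdhb, its iron-sulfur subunit, averaged 10.74 ± 0.21 in KI Tregs and 10.53 ± 0.02 in KI Tconv (0.21, adjusted p = 0.0455). That call was lost under 10 of 16 settings. In complex III, Uqcr11, a small accessory subunit, read 9.60, 9.50, 9.19 and 9.11 in KI Tregs, against 8.82, 8.67, 8.67 and 9.08 in KI Tconv. It read 9.28, 9.24, 9.21 and 9.11 in WT Tregs, against 9.06, 8.70, 8.60 and 8.78 in WT Tconv. Treg arrays were the higher ones in both genotypes, without overlap, by 0.54 (SE 0.12, adjusted p = 0.00125) and 0.43 (SE 0.12, adjusted p = 0.00858). Of the KI pair of arrays numbered 24 to 27, the Treg array was only 0.04 above the Tconv array. Uqcrb, which supports ubiquinone binding, averaged 9.25 ± 0.15 in KI Tregs and 8.92 ± 0.07 in KI Tconv (0.34, adjusted p = 0.0131).

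In complex IV, the structural subunit Cox6b1 was higher in Tregs by 0.14 in KI (adjusted p = 0.0322) and 0.16 in WT cells (adjusted p = 0.0205). Cox5b, another nuclear-encoded subunit, read 11.22, 11.27, 11.06 and 11.11 in KI Tregs, against 10.95, 10.83, 10.89 and 10.94 in KI Tconv. These arrays did not overlap, and the difference was 0.27 (SE 0.05, adjusted p = 0.000747). The other 3 Cox5b probe sets gave 0.31, -0.54 and -0.04, at mean log2 levels of 10.11, 5.39 and 2.88, against 11.02 for the set used. The set at 10.11 thus had the same sign as the set used, and the others lay near or below the filter value of 5. The mean of all 4 had a difference of -0.0004. Cox19, a factor in copper delivery, was higher in KI Tregs (0.33, adjusted p = 0.0223).

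Most ATP synthase genes did not pass. Atp5b, the catalytic beta subunit, read 10.61, 10.49, 10.71 and 10.59 in WT Tregs, against 10.74, 10.94, 10.90 and 10.71 in WT Tconv, where the highest Treg array equalled the lowest Tconv array after rounding. It was lower in WT Tregs by -0.22 (SE 0.07, adjusted p = 0.0266). Atp5j (0.24, adjusted p = 0.0175) and Atp5d (0.19, adjusted p = 0.0202), 2 smaller subunits, were higher in KI Tregs. Cycs, which encodes cytochrome c, averaged 9.97 ± 0.09 in KI Tregs and 9.90 ± 0.14 in KI Tconv, and 9.89 ± 0.07 in WT Tregs and 9.90 ± 0.13 in WT Tconv. Its groups overlapped in both genotypes.

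**Figure D3:**
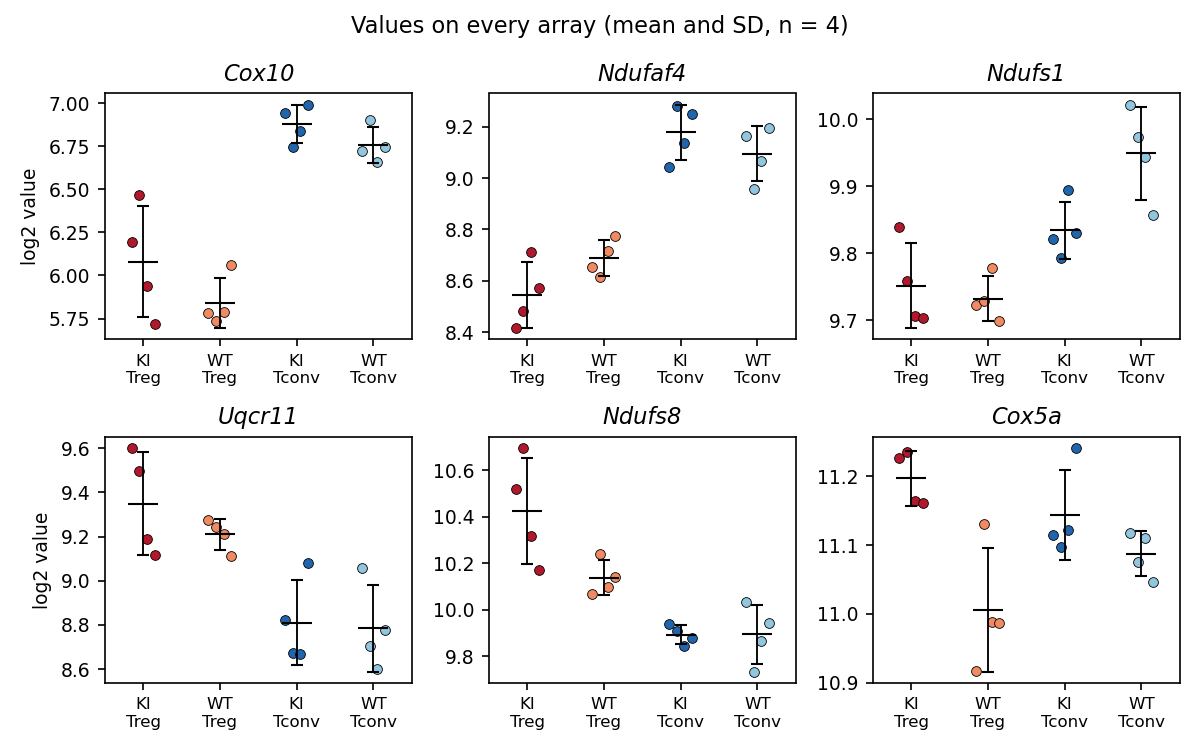
Log2 value on every array (y axis) by group (x axis) for 6 members; points are arrays, and the bar gives the mean and SD of 4. The Treg points of Cox10 and Ndufaf4 lie below the Tconv points of the same genotype, those of Uqcr11 and Ndufs8 above, and the KI Treg points of Cox5a above the WT Treg points.

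Marker genes also differed with cell type. The summed log2 values of the cycling genes (9 of 10 measured, Aurkb not kept) were 60.3 to 67.8 in KI Tregs and 51.5 to 62.0 in WT Tregs, against 46.4 to 52.9 in KI Tconv and 46.9 to 56.0 in WT Tconv. The dendritic cell list (4 of 5 measured; Itgax, Flt3 and Zbtb46 not kept) summed to 17.0 to 19.6 in KI Tregs and 16.4 to 18.7 in WT Tregs, against 15.4 to 16.3 in KI Tconv and 15.2 to 15.8 in WT Tconv. Of the dendritic genes Irf8 differed most, with means of 7.35 in KI Tregs and 6.89 in WT Tregs, against 5.50 in KI Tconv and 5.26 in WT Tconv. Itgax averaged 3.80 in KI Tregs and 3.78 in WT Tregs, against 3.77 in KI Tconv and 3.74 in WT Tconv. The CD8 genes (both measured and kept) summed to 11.7 to 12.5 and 12.2 to 12.9 in KI and WT Tregs, against 10.4 to 11.2 and 9.6 to 10.4 in KI and WT Tconv. Cd8a averaged 6.10 in KI Tregs and 6.43 in WT Tregs, against 4.28 in KI Tconv and 4.08 in WT Tconv. Cd8b1 averaged 6.16 and 6.09 in KI and WT Tregs, against 6.42 and 6.01 in KI and WT Tconv. The CD4 T cell list (5 of 6 measured, all kept) summed to 51.2 to 52.0 in KI Tregs and 51.1 to 51.6 in WT Tregs, against 52.2 to 52.3 in KI Tconv and 51.5 to 52.3 in WT Tconv. In it, Cd4 averaged 7.50 and 7.25 in KI and WT Tregs, against 7.99 and 7.96 in KI and WT Tconv. The NK cell list (Klrb1c, Ncr1 and Gzma not kept) overlapped between all groups, at 27.1 to 32.2. Its gene Klrd1 averaged 4.31 and 3.89 in KI and WT Tregs, against 7.67 and 7.77 in KI and WT Tconv. Eomes and Nkg7 went the other way. Eomes averaged 6.52 and 6.61 in KI and WT Tregs, against 5.70 and 5.68 in KI and WT Tconv. Nkg7 averaged 7.60 and 7.96 in KI and WT Tregs, against 6.64 and 7.07 in KI and WT Tconv. The part of these in the differences was not tested.

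The count of called members in KI cells depended on single arrays. It was 10 without the first KI Treg array, 12 without the second, and 11 without the second or the third KI Tconv array, against 19 with all. Over all 8139 genes, 2890, 3107, 2930 and 2946 passed without these arrays, against 3343. In WT cells the member count was 8 without the first WT Treg array or without the third WT Tconv array, against 13. Over all genes, 2454 and 2484 passed, against 2818. With each array centred on the median of the genes kept, 12 members were higher and 7 lower in KI Tregs, and 7 were higher and 9 lower in WT Tregs. Over all genes, centring gave 1641 higher and 1922 lower in KI Tregs, and 1390 higher and 1541 lower in WT Tregs. Under all settings that tested them, 5 of the 19 KI calls held (Cox10, Ndufaf4, Ndufs8, Uqcr11 and Uqcrb), as did 5 of the 13 WT calls (Cox10, Ndufaf4, Ndufaf6, Ndufs1 and Uqcr11).

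The second question is how KI cells differ from WT cells of the same type. Between KI and WT Tregs, 1 of the 87 members passed, against 2.84% of all genes, of which calls above 0 make up 1.99% of the table and calls below 0 make up 0.848%. This was Cox5a, a nuclear-encoded subunit of complex IV, with 11.23, 11.24, 11.16 and 11.16 in KI Tregs, against 10.92, 11.13, 10.99 and 10.99 in WT Tregs. All KI Treg arrays were above all WT Treg arrays, and the difference was 0.19 (SE 0.05, adjusted p = 0.045). The groups also did not overlap for Uqcrc1 and Ndufc1, and so for 3 members in all, against 8.12% of all genes. The 3 probe sets of Cox5a agreed in sign and size, at 0.19, 0.19 and 0.20. The call was lost under 12 of 16 settings, with adjusted p-values between 0.0145 and 0.266 over them.

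No single member differed by 1.5-fold between KI and WT Tregs, against 2.4% of all genes, and the differences ran from -0.14 to 0.29. Their signs were uneven, with 78 of the 87 above 0, while 60.3% of all genes were. The median was 0.10, against 0.04 over all genes. By class, 27 of 32 complex I subunits, all 4 of complex II, all 7 of complex III, 10 of 11 of complex IV and 16 of 17 of ATP synthase were above 0. Assembly factors were above 0 in 5 of 7 cases for complex I and 7 of 7 for complex IV. Class medians ran from 0.03 for the complex I assembly factors to 0.17 for complex III. With each array centred on the median of the genes kept, 68 members were above 0 and the median was 0.07, against 50.8% of all genes.

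The members next in order after Cox5a did not pass. Sdhb read 10.84, 10.98, 10.60 and 10.52 in KI Tregs, against 10.52, 10.54, 10.35 and 10.48 in WT Tregs, with a difference of 0.27 (adjusted p = 0.0911). Ndufs8 differed by 0.29 (adjusted p = 0.101), Atp5e, a small subunit of the ATP synthase stalk, by 0.23 (adjusted p = 0.101) and Ndufa12 by 0.22 (adjusted p = 0.133). Uqcrc1, a core subunit of complex III, read 9.29, 9.30, 9.00 and 8.96 in KI Tregs, against 8.94, 8.91, 8.86 and 8.85 in WT Tregs (0.25, adjusted p = 0.147). In Sdhb and Uqcrc1 the first and second KI Treg arrays were the high ones, and the other two lay close to or within the WT range. Uqcrfs1, the Rieske iron-sulfur protein, differed by 0.17 (adjusted p = 0.225) and Atp5a1, the alpha subunit of ATP synthase, by 0.15 (adjusted p = 0.171).

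The remaining named members did not pass in any comparison. In complex II, Sdha, the flavoprotein that oxidises succinate, averaged 10.34 ± 0.06 in KI Tregs, 10.29 ± 0.04 in WT Tregs, 10.43 ± 0.05 in KI Tconv and 10.42 ± 0.06 in WT Tconv (SD, n = 4 each). The difference between WT Tregs and WT Tconv was -0.13 (adjusted p = 0.0582). Sdhc and Sdhd, which anchor the complex in the membrane, differed by 0.02 and 0.20 between KI and WT Tregs (adjusted p = 0.893 and 0.392). Thus the complex II subunits ranged from 0.02 to 0.27 in that comparison.

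The ring of ATP synthase is built from 1 mature protein encoded by Atp5g1, Atp5g2 and Atp5g3. Atp5g1 averaged 9.78 ± 0.17 in KI Tregs, 9.58 ± 0.10 in WT Tregs, 9.66 ± 0.08 in KI Tconv and 9.60 ± 0.07 in WT Tconv. KI Tregs differed from WT Tregs by 0.21 for Atp5g1, 0.11 for Atp5g2 and 0.15 for Atp5g3 (adjusted p = 0.188, 0.602 and 0.232). Each of these 3 was above 0 and none passed.

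Among the members, the widely used forms of complex IV subunits that have a tissue-restricted counterpart had no call between groups, apart from Cox6b1. Cox4i1 averaged 11.79 ± 0.15 in KI Tregs, 11.71 ± 0.07 in WT Tregs, 11.68 ± 0.09 in KI Tconv and 11.68 ± 0.01 in WT Tconv. Between KI and WT Tregs the differences were 0.08 for Cox4i1, 0.10 for Cox6a1, 0.10 for Cox7a2, 0.15 for Cox8a and 0.14 for Ndufa4, with adjusted p-values of 0.299 to 0.555. Cox7a2l, which joins complexes III and IV into supercomplexes, differed by 0.04 (adjusted p = 0.808). Ndufv1, the complex I subunit that binds NADH, averaged 9.81 ± 0.12 in KI Tregs and 9.69 ± 0.06 in WT Tregs (0.12, adjusted p = 0.354).

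The lowest member of this comparison was Ndufaf4, at -0.14 (adjusted p = 0.358), which was also lower in Tregs than in Tconv in both genotypes.

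**Figure D4:**
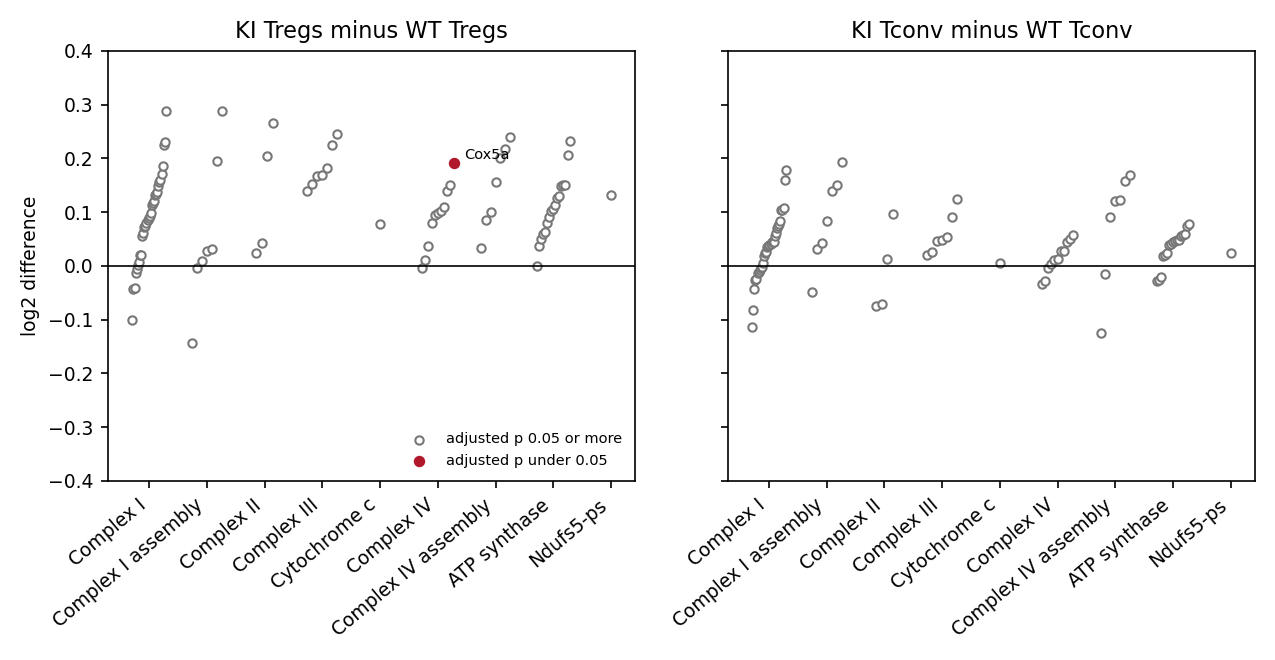
Log2 difference of KI minus WT cells (y axis) for each of the 87 members by class (x axis), in Tregs (left) and Tconv (right); filled points passed the test and open points did not. In Tregs 78 points lie above 0 and only Cox5a is filled, and in Tconv 66 lie above 0 and none is filled.

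Between KI and WT Tconv, no member passed with limma, where 0.135% of all genes passed (11 genes, all lower in KI). Of those 11, 3 were Treg markers, namely Foxp3 (-0.93, adjusted p = 0.0104), Ikzf2 (-0.83, adjusted p = 5.8e-06) and Nrp1 (-0.77, adjusted p = 0.00807), and all 7 Treg markers were below 0. The Tconv groups, against which the Tregs of each genotype were set, thus differed in these markers, and the part of this in the other comparisons was not tested. No member differed by 1.5-fold (0.897% of all genes did), and the groups did not overlap for 1 member, against 3.74% of all genes. At an unadjusted p under 0.05 there were 2 members, Ndufab1 (0.18, adjusted p = 0.733) and Ndufs1 (-0.11, adjusted p = 0.826), against 480 of all 8139 genes. Ndufab1, the mitochondrial acyl carrier protein, is named here after its values were seen. Of the 87, 66 differences were above 0, against 55% of all genes, and the median was 0.04, against 0.01. The median was 0.0097 with 52 above 0 without the fourth KI Tconv array, 0.02 without the third WT Tconv array and 0.07 without the first WT Tconv array. Without the arrays numbered 24 to 27 it was 0.0021, with 44 above 0. The interaction subtracts the genotype difference of Tconv from that of Tregs. No member passed its test, where 0.786% of all genes passed (0.663% above 0 and 0.123% below). An unadjusted p under 0.05 was found for 3 members (Ndufs8, Cox19 and Atp5a1), against 673 of all 8139 genes. Of the members 71 were above 0, against 56.1% of all genes. None reached 1.5-fold, against 2.95% of all genes. The median interaction over the members was 0.07, against 0.02 over all genes. It was 0.03 with 53 above 0 without the second KI Treg array, 0.05 without the first KI Treg or the second KI Tconv array, and 0.04 without the first WT Tconv array. It was 0.11 without the third KI Treg array, 0.11 without the fourth, and 0.13 without the arrays numbered 24 to 27.

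The shift in KI Tregs was unequal between arrays. The mean log2 value over the 87 members was 9.94, 9.99, 9.78 and 9.74 in KI Tregs, 9.75, 9.83, 9.72 and 9.73 in WT Tregs, 9.84, 9.75, 9.77 and 9.87 in KI Tconv, and 9.87, 9.73, 9.72 and 9.76 in WT Tconv. The first and second KI Treg arrays were the 2 highest of all 16, and the other two KI Treg arrays lay within the range of the WT Tregs. On the second KI Treg array, 34 of the 87 members had their highest value of the 16 arrays, and 80 were above their own mean. On the first, 12 had their highest value and 79 were above their mean. On the third, 43 were above their mean, and on the fourth, 23, and none had its highest value on either. Within groups, the first component of the members' deviations from the group means held 56.3% of the variance. Neither this share nor the counts of highest values were computed for all genes. Whether they are particular to the members is therefore not known. The median over all genes kept also differed between these arrays, at 7.93, 7.95, 7.89 and 7.86 in KI Tregs, against 7.84, 7.89, 7.86 and 7.91 in WT Tregs.

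**Figure D5:**
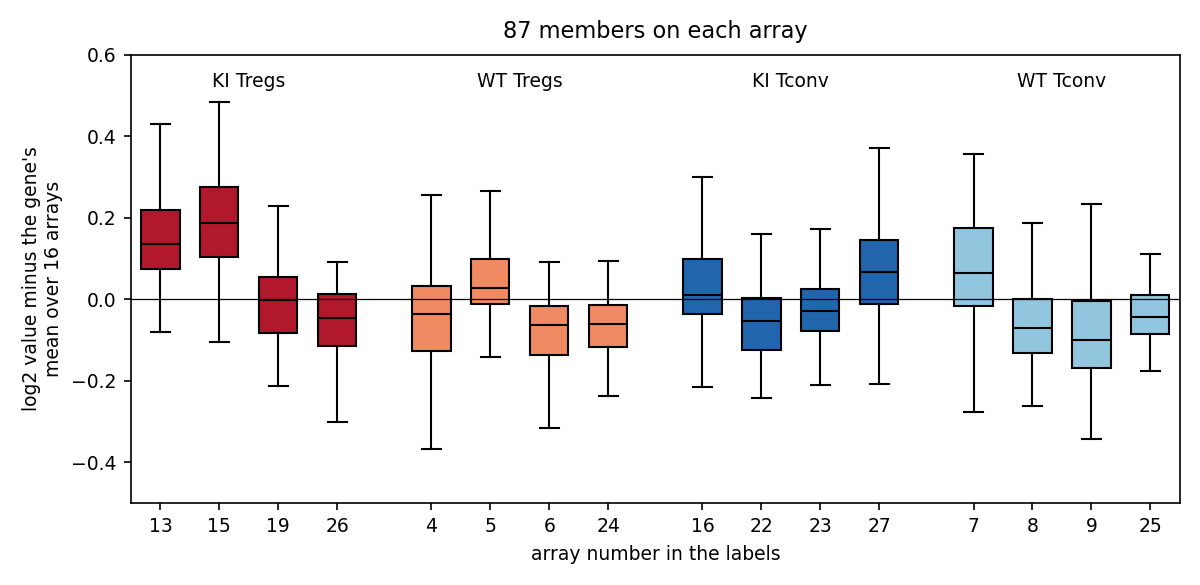
Log2 value minus the gene's mean over 16 arrays (y axis) for the 87 members on each array (x axis, by the array number in the labels), grouped by cell type and genotype; boxes give the quartiles, the line the median and the whiskers the range up to 1.5 box lengths. The boxes of the KI Treg arrays numbered 13 and 15 lie highest, with medians of 0.14 and 0.19, and those of arrays 19 and 26 lie near 0.

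The arrays are numbered 4 to 9, 13 to 23 and 24 to 27 in the labels. The first set holds only WT samples, the second only KI samples and the third 1 sample of each group, and the labels do not say what the numbers stand for. Within the third set, with 1 array per group and no test, the member median was 0.02 between KI and WT Tregs, 0.12 between KI and WT Tconv, -0.12 between KI Tregs and KI Tconv, and -0.04 between WT Tregs and WT Tconv. Over all genes, the medians within this set were -0.04, 0.08, -0.12 and -0.01 in the same order. The member medians with all arrays were 0.10, 0.04, 0.05 and -0.01, against 0.04, 0.01, -0.02 and -0.03 over all genes. Cox5a differed by 0.17 between the KI and WT Treg arrays of the third set. With the 3 sets as a block no member passed between KI and WT Tregs, and 29 of all genes passed, against 231 without it. The member median in that fit was 0.11, with 74 of 87 above 0, against 0.02 and 56.8% over all genes. The first 2 sets hold 1 genotype each, so the KI against WT level in that fit rested on arrays 24 to 27, with Tregs and Tconv pooled. Only the difference between the cell types also drew on the other arrays. The value is therefore not a Treg difference of its own. With arrays 24 to 27 set against all others as a block of 2 sets, 1 member and 339 genes passed. Without the third set, 2 members and 422 genes passed, and Cox5a was not among them. Leaving out only the fourth KI Treg array gave 8 members and 571 genes.

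The cycling genes were also uneven. Their mean log2 value was 6.93, 7.45, 7.53 and 6.70 in KI Tregs, against 5.72, 6.89, 6.23 and 5.84 in WT Tregs. All 8 kept were above 0 in this comparison and 2 passed. The third KI Treg array was the highest for the cycling genes and was not high for the members. The part of cycling cells, and of the neutrophil genes whose ranges are given with the markers, in the KI shift was not tested.

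Genes that feed or build the pathway were counted from lists outside the symbol rule. For these counts, the shares over all genes are those given for the members, 41.1% called between KI Tregs and KI Tconv (21.2% higher, 19.9% lower), 34.6% between WT Tregs and WT Tconv (16.7% higher, 17.9% lower) and 2.84% between KI and WT Tregs. Of 11 tricarboxylic acid cycle genes tested, 3 were higher (Mdh2 by 0.15, Fh1 by 0.19 and Idh3g by 0.18) and 1 lower (Suclg1 by -0.23) in KI Tregs than in KI Tconv. In WT cells none was higher and only Suclg1 was lower, by -0.23. Between KI and WT Tregs none of the 11 passed, and 10 were above 0 with a median of 0.12, against 60.3% and 0.04 over all genes. An unadjusted p under 0.05 was found for 5 of the 11, against 1347 of all 8139 genes. Of 25 further assembly factors, 3 were higher and 2 lower in KI Tregs than in KI Tconv, and 4 higher and 4 lower in WT Tregs than in WT Tconv. Sdhaf1, an assembly factor needed for the maturation of Sdhb, had the widest difference of these, 1.18 in KI (SE 0.17, adjusted p = 1.75e-05) and 1.24 in WT cells (SE 0.17, adjusted p = 1.29e-05). The genes named from these lists were picked among those that passed, after their values were seen.

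Among 14 regulators of mitochondrial biogenesis, 1 was higher and 4 were lower in KI Tregs than in KI Tconv, and 1 was higher and 3 were lower in WT Tregs than in WT Tconv. Ppargc1b, a coactivator of mitochondrial genes, was lower in Tregs by -0.55 in KI (adjusted p = 4.57e-06) and -0.33 in WT cells (adjusted p = 0.00119). Pprc1, a related coactivator, was lower by -0.52 (adjusted p = 0.000146) and -0.40 (adjusted p = 0.00173). Polrmt, the mitochondrial RNA polymerase, was lower by -0.33 (adjusted p = 0.00504) and -0.34 (adjusted p = 0.00479). Gabpb1, a subunit of the ETS-family complex GABP, was higher by 0.30 (adjusted p = 0.013) and 0.27 (adjusted p = 0.03).

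A list of 16 genes held electron carriers and enzymes that feed ubiquinone, enzymes of ubiquinone synthesis, and carriers and channels of the mitochondrial membranes. Of these, none was higher and 4 were lower in KI Tregs than in KI Tconv, and none was higher and 3 were lower in WT Tregs than in WT Tconv. Gpd2, the mitochondrial glycerol-3-phosphate dehydrogenase that passes electrons to ubiquinone, averaged 7.68 in KI Tregs and 9.03 in KI Tconv (-1.35, SE 0.10, adjusted p = 6.13e-09). It averaged 7.97 in WT Tregs and 8.99 in WT Tconv (-1.01, SE 0.10, adjusted p = 3.8e-07). Dhodh, which also passes electrons to ubiquinone, was lower by -0.39 (adjusted p = 0.00277) and -0.41 (adjusted p = 0.00236). Coq7, an enzyme of ubiquinone synthesis, was the gene of this list that passed between KI and WT Tregs, with 6.66 in KI Tregs and 6.20 in WT Tregs (0.46, adjusted p = 0.0432). Of 71 mitochondrial ribosome genes, 2 were higher and none was lower in KI than in WT Tregs. Between Tregs and Tconv, 9 were higher and 7 lower in KI cells, and 5 were higher and 6 lower in WT cells.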

How the data were processed

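The authors deposited log2 values per probe set. Per the submitters' processing notes, RMA and Partek 6.5 were used. RMA corrects background, gives all arrays 1 distribution and combines the probes of a set. Control probe sets reach nearly 5, and below this level a fold is understated. Its options are not given in the sources used here. Array medians ran from 3.69 to 3.76. The number of arrays limits the precision. Of 45141 probe sets, 28898 matched 1 gene, 551 several and 15588 none, and 104 were controls. Symbols were taken from the platform annotation, updated by Entrez identifier, and are partly older ones (Atp5b, Atp5a1). For each gene the probe set of highest mean (16 arrays) was used.

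Genes had to exceed log2 5 on 4 or more arrays. The fit (limma 3.58.1, R 4.3.3) took all 16 arrays with a mean for each group and a variance trend on level. Two-sided p-values were adjusted (Benjamini-Hochberg) over 8139 genes in each comparison. Values are log2 differences with limma's SE, or means with the SD. The procedure was tested on simulated data, drawn independently for each gene and array. Shifts shared by the genes of an array were not simulated. Named are called members (up to 8 per comparison), the 3 largest KI minus WT Treg differences of each class, and a set of subunits. The members and lists were chosen with earlier results of these data known. Alternatives covered centring, filters, the probe set rule, the variance trend, array number sets and leaving out each array.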

Additional observations from a re-analysis of the deposited data

Results flagged for a closer look

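In each of the groups of 4 arrays, the most extreme value of a named member was set against the other 3 by its gap over the group's range. A gap ratio above Dixon's critical value marked 6 of 168 groups, where chance marks about 5%. Cox10 was at 6.06 on the fourth WT Treg array, against 5.74 to 5.79 on the others. On the fourth KI Tconv array, Cox6a1 was at 12.33, against 12.17 to 12.19, and Cox7a2l at 11.31, against 11.07 to 11.08. On the first WT Tconv array, Ndufb2 was at 9.28, against 8.83 to 8.89, and Uqcr10 at 9.87, against 9.42 to 9.50. Ndufb8 was at 9.57 on the third KI Treg array, against 9.79 to 9.83. The fourth KI Tconv and first WT Tconv arrays also had the highest member means of their groups.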

How the results depend on the processing

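No paired analysis was possible because the labels number every array once and share no replicate number between groups. Between KI and WT Tregs, the count of called members (1, Cox5a) was 0 with the 3 array number sets as a block. It was also 0 with centred arrays, without the variance trend, without a filter and with a stricter filter. Without the arrays numbered 24 to 27 the count was 2, and Cox5a was not among them. It ran from 0 to 8 with 1 array left out. Leaving out 1 array gave 10 to 22 called members between KI Tregs and KI Tconv and 8 to 15 between WT Tregs and WT Tconv. Over all 8139 genes, leaving out 1 array gave 2890 to 3344 and 2443 to 2675 calls in these comparisons, and 101 to 571 between KI and WT Tregs. Member medians within the arrays numbered 24 to 27 were 0.0203 (KI against WT Tregs), 0.12 (KI against WT Tconv), -0.12 (KI Tregs against KI Tconv) and -0.10 (interaction). Over all genes they were -0.04, 0.08, -0.12 and -0.12 in the same order. Without these arrays the member median between KI Tregs and KI Tconv was 0.14, against 0.03 over all genes. Reversed between KI Tregs and KI Tconv were Cox5b with the mean of its probe sets (-0.0004) and, within the arrays numbered 24 to 27, Atp5d (-0.0455), Ndufa11 (-0.0083) and Sdhb (-0.0126). The Cox5b mean takes in sets at log2 levels of 5.39 and 2.88. Over all genes, centring gave 144 higher and 113 lower calls between KI and WT Tregs, against 162 and 69. Between KI and WT Tconv, 105 genes passed without the arrays numbered 24 to 27 and 65 without the fourth KI Tconv array, against 11. No setting called a member between KI and WT Tconv or in the interaction. The causes were not tested. Differences near a log2 value of 5 are limited by background.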
